A study of Bos taurus with 6 samples.

Results

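Homologous recombination and Fanconi anemia repair were followed in rumen epithelial primary cells (REPC) through 39 genes, chosen by name as the BRCA proteins, the XRCC2 and XRCC3 complexes, the proteins of strand exchange and annealing, the Fanconi proteins, the nucleases and helicases of end resection, replication protein A and the checkpoint kinases. All 39 genes were found among the 32183 genes of each expression table, on 40 entries, since FANCC is listed at 2 positions. The REPC came from the rumen of 1 Holstein bull calf of 2 weeks that had received milk replacer only, and RNA was sequenced from 3 control cultures and from 3 that were kept with butyrate at 5 mM over 24 h. Both groups therefore share the calf, the breed and the culture, and the spread between cultures is not a spread between animals.

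Homologous recombination repairs a broken chromosome by copying the sister chromatid, so it operates mainly in S and G2 phase of the cell cycle. The broken end is cut back to a single strand, replication protein A coats that strand, and BRCA1, PALB2 and BRCA2 prepare it to pair with the sister chromatid. The Fanconi proteins act when the strands of the DNA helix are crosslinked: a core complex attaches ubiquitin to FANCD2 and FANCI, which then call on the nucleases and the recombination machinery. Butyrate, a short-chain fatty acid made by fermentation in the rumen, inhibits histone deacetylases and is known to slow the division of many cultured cells.

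Expression is given as FPKM, the fragment number of a gene scaled by transcript length and by library size, so that levels of genes of different length can be compared. The FPKM of a control culture summed to between 678035 and 681912, and that of a butyrate culture to between 619401 and 629037. Fold changes are differences of log2(FPKM + 0.1), which shrinks the changes of weakly expressed genes. The limma test covered the 15813 genes whose FPKM averaged 0.1 or more. A gene was called when its Benjamini-Hochberg adjusted p was under 0.05, and it was a differentially expressed gene (DEG) when its Bonferroni-adjusted p was under 0.05 and its log2 fold change lay beyond 2. In RNA from whole cultures, fewer cells that express a gene and less of its RNA in each cell cannot be told apart.

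The label of the cells was compared with 12 epithelial markers. KRT5, a basal keratin, had an FPKM of 401 ± 30.7 (SD, n = 3) in control, and CDH1, the adhesion protein of epithelia, had 49.8 ± 1.49 (SD, n = 3), whereas EPCAM was low at 0.540 ± 0.174 (SD, n = 3). The summed FPKM of the epithelial markers lay between 2439 and 2546 in control and between 5079 and 5164 after butyrate. Of the 12 markers 9 were called higher, while 32.5% of all tested genes were. Among these 9, the mean FPKM of KRT14 went from 72.5 in control to 500 after butyrate. That of EPCAM went from 0.540 to 3.33 and that of TP63 from 8.06 to 10.5. KRT5 was called lower, at 356 ± 8.83 (SD, n = 3) after butyrate. CDH1, at 48.9 ± 2.11 (SD, n = 3) after butyrate, and DSP were not called. Among the 10 fibroblast markers, COL1A1 at 1149 ± 34.9 (SD, n = 3) and VIM at 2464 ± 61.0 (SD, n = 3) were abundant in control. PDGFRA, LUM, PDGFRB and FAP were low, with a mean FPKM of 0.306, 0.149, 0.0203 and 0.0150 in control. The sum of the 10 markers went from between 4356 and 4512 in control to between 6374 and 6715 after butyrate. Of the 8 tested markers 8 were called higher, beside 32.5% of all tested genes. The leukocyte gene PTPRC and the endothelial gene CDH5 were listed at 0 in all cultures, the 7 immune markers summed to at most 7.15 in control and 9.50 after butyrate, and the 5 endothelial markers to at most 2.16 and 8.43. The part of these shifts in the results was not tested.

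Most of the recombination and Fanconi genes were lower in the butyrate cultures. Of the 39 genes, 37 passed the filter on low values, and 29 of these were called lower, 2 were called higher and 6 were not called. This is 78.4% called lower, beside 25.9% of all tested genes. The share called higher was 5.41%, beside 32.5% of all tested genes. The median log2 fold change of the 37 genes was -1.31, against 0.10 for all tested genes. With a pseudocount of 1 in place of 0.1 these medians were -0.80 and 0.07.

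The size of the fall covered a wide range. The log2 fold change was below -2 in 13 genes, between -2 and -1 in 7, between -1 and 0 in 14, and above 0 in 3. In 30 of the 37 tested genes all 3 butyrate values lay below all 3 control values, a pattern found in 28.9% of all tested genes. Only FANCF, among the 39, had all its butyrate values above its control values, against 36.1% of all tested genes. FANCD2, FANCI, BLM, BRCA1, XRCC2, RAD54B and FANCG were downregulated DEGs, which is 18.9% of the 37 tested genes beside 1.51% of all tested genes. With 1 culture left out between 2 and 4 genes were DEGs, FANCD2 and BRCA1 each time, and only this pair without control replicate 1. No gene of the group was an upregulated DEG in limma, with 2 higher at an unadjusted p under 0.05, while 2.46% of all tested genes were.

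**Figure D1:**
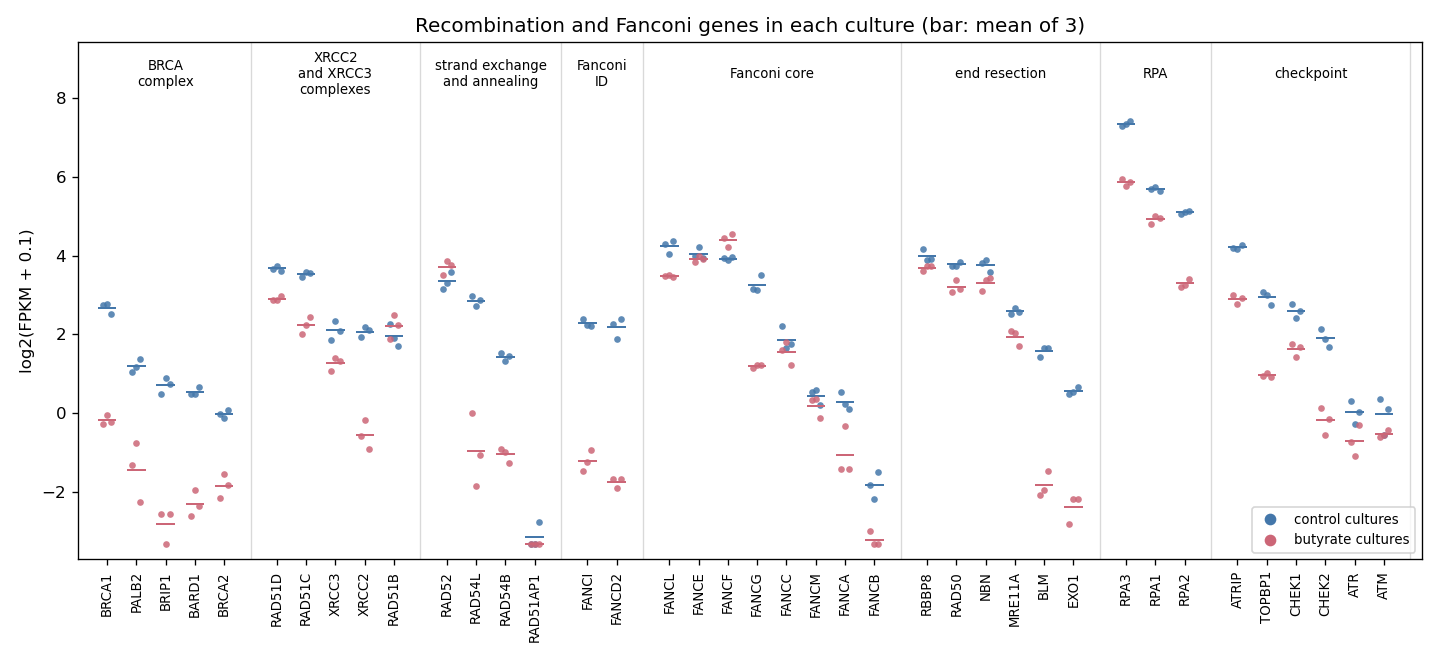
FPKM of the 39 genes in each of the 6 cultures on a log2(FPKM + 0.1) axis, grouped by role and ordered by control level, with points for single cultures (blue, control; red, butyrate) and bars for the mean of 3. The butyrate points lie below the control points for all genes of the BRCA complex, the Fanconi ID pair, end resection and RPA. FANCF, RAD52 and RAD51B have higher butyrate means.

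Both genes of the Fanconi ID complex, the pair of proteins that the core complex marks with ubiquitin at a crosslink, were downregulated DEGs. FANCD2 lies on chromosome 22 from 16783073 to 16833700 (UMD3.1, positions as in the tables, here and below), and the 3 control cultures, given here and below in the order of their replicate numbers, had an FPKM of 4.74, 3.57 and 5.12, whereas the butyrate cultures had 0.215, 0.172 and 0.215. Its 3 butyrate values were alike and far below the lowest control, with a log2 fold change of -3.92 ± 0.23 (SE; limma, Benjamini-Hochberg adjusted p = 1.98e-06). The log2 fold change of FANCD2 was -4.40 with a pseudocount of 0.01 and -2.18 with a pseudocount of 1. The confidence bounds of the butyrate values correspond to 11, 9 and 11 sequenced fragments, so the butyrate level rests on few fragments in each culture. FANCI, on chromosome 21 from 21133958 to 21198618, had an FPKM of 5.13, 4.61 and 4.54 in control and 0.264, 0.324 and 0.427 after butyrate. FANCI thus fell nearly as far as its partner, with a log2 fold change of -3.49 ± 0.22 (SE; limma, Benjamini-Hochberg adjusted p = 2.51e-06). The neighbour POLG, the mitochondrial DNA polymerase, shares 774 bp with the FANCI entry and had an FPKM of 23.7 ± 0.426 (SD, n = 3) in control and 14.99 ± 0.799 (SD, n = 3) after butyrate, and the sources do not say whether reads were counted by strand.

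The core complex that carries out this ubiquitination did not move as 1 unit. Of its 8 genes, 3 were called lower, 1 was called higher, 3 were not called and FANCB was too low to be tested. This is 42.9% of the tested core genes called lower and 14.3% called higher, beside 25.9% and 32.5% of all tested genes. FANCG, an adaptor subunit on chromosome 8 from 59748221 to 59755544, had an FPKM of 8.78, 8.59 and 11.4 in control and 2.10, 2.26 and 2.24 after butyrate. Its log2 fold change of -2.06 ± 0.14 (SE; limma, Benjamini-Hochberg adjusted p = 4.94e-06) made it the DEG of the core. FANCA, which binds FANCG, was much less abundant and noisier, with 1.35, 1.07 and 0.979 in control against 0.278, 0.703 and 0.275 after butyrate, and its log2 fold change was -1.34 ± 0.36 (SE; limma, Benjamini-Hochberg adjusted p = 0.0117). The FANCA entry shares 541 bp with ZNF276, which had a mean FPKM of 6.48 in control and 6.90 after butyrate. Part of the FANCA reads may belong to that gene, and the FANCA butyrate values imply only 6.15, 20.7 and 6.70 fragments.

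FANCL, the ubiquitin ligase of the complex, stayed among the more abundant genes of the group. Its FPKM was 19.5, 16.3 and 20.5 in control and 11.0, 11.3 and 10.9 after butyrate, and it fell by 0.75 on the log2 scale (limma, Benjamini-Hochberg adjusted p = 0.000235). The FANCL entry shares 711 bp with VRK2, which had a mean FPKM of 11.5 in control and 13.9 after butyrate. Part of the FANCL reads may belong to that gene. FANCE, which connects the core to FANCD2, was not called, with 15.8, 18.6 and 15.2 in control and 14.1, 15.8 and 14.9 after butyrate. FANCM, the DNA translocase that anchors the core on chromatin, had 1.35, 1.40 and 1.06 against 1.17, 1.19 and 0.817, and its groups overlapped as well.

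FANCF, an adaptor of the core on chromosome 29 from 22456237 to 22457440, was called higher. Its FPKM was 15.1, 14.6 and 15.4 in control and 21.8, 18.4 and 23.3 after butyrate. Every butyrate culture was above every control culture, and the log2 fold change was 0.49 ± 0.10 (SE; limma, Benjamini-Hochberg adjusted p = 0.00251). The call held in each of the 14 alternative fits, but not where a log2 fold change beyond 1 was also required. After butyrate FANCF had the third highest FPKM among the 39 genes, up from the eighth in control.

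FANCC, another core subunit, is listed on 2 entries of chromosome 8, and its reads may be split between them. The entry from 83022521 to 83228696 had an FPKM of 4.501, 3.04 and 3.26 in control and 2.96, 3.37 and 2.24 after butyrate. The entry from 83270430 to 83392672 had 2.79, 0.934 and 1.67 against 1.13, 1.41 and 0.980. In both entries the groups overlapped, and neither was called (limma, Benjamini-Hochberg adjusted p = 0.223 and 0.297). FANCB, a partner of FANCL on chromosome X, was near the limit of detection, with 0.184, 0.122 and 0.258 in control and 0.0268, 0 and 0 after butyrate, which its bounds give as 8, 5 and 11 fragments against 1, 0 and 0. Tested without the filter on low values, it was called lower with a log2 fold change of -1.38 ± 0.26 (SE; limma, Benjamini-Hochberg adjusted p = 0.00446).

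All 5 genes of the BRCA complex were called lower, beside 25.9% of all tested genes. BRCA1, the ubiquitin ligase that starts repair by recombination at a break, lies on chromosome 19 from 43713350 to 43784580. Its FPKM was 6.63, 6.69 and 5.62 in control and 0.726, 0.880 and 0.753 after butyrate, a log2 fold change of -2.85 ± 0.17 (SE; limma, Benjamini-Hochberg adjusted p = 1.83e-06). BRCA1 was the most abundant of the 5 genes in both groups, and its groups were far apart.

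BARD1, the obligate partner of BRCA1 on chromosome 2 from 103278180 to 103371041, was expressed at a lower level. Its FPKM was 1.29, 1.31 and 1.48 in control and 0.0648, 0.158 and 0.0974 after butyrate. The log2 fold change of -2.84 ± 0.31 (SE; limma, Benjamini-Hochberg adjusted p = 6.70e-05) was close to that of BRCA1 with the pseudocount of 0.1. With a pseudocount of 0.01 BARD1 was at -3.63 and BRCA1 at -2.99, and with a pseudocount of 1 at -1.09 and -2.03. The confidence bounds of the butyrate values of BARD1 imply 1.11, 3.59 and 1.87 fragments. BRIP1, the helicase that binds BRCA1, on chromosome 19 from 11495496 to 11670515, had 1.30, 1.77 and 1.56 against 0.0711, 0 and 0.0708. It was listed at 0 in butyrate replicate 2, and its log2 fold change of -3.51 ± 0.35 (SE; limma, Benjamini-Hochberg adjusted p = 4.00e-05) became -5.26 with a pseudocount of 0.01 and -1.28 with a pseudocount of 1.

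The last pair of this group acts after the break has been resected. PALB2, which bridges BRCA1 and BRCA2, lies on chromosome 25 from 21516075 to 21540686 and had an FPKM of 1.96, 2.15 and 2.49 in control and 0.306, 0.497 and 0.111 after butyrate. The 3 butyrate cultures differed among themselves, yet all lay below the controls, and the log2 fold change was -2.63 ± 0.38 (SE; limma, Benjamini-Hochberg adjusted p = 0.000405). The butyrate values of PALB2 imply 11, 18 and 4 fragments. BRCA2, the partner of PALB2, was low throughout, with 0.894, 0.825 and 0.952 against 0.125, 0.248 and 0.185, and fell by 1.81 on the log2 scale (limma, Benjamini-Hochberg adjusted p = 0.00100).

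**Figure D2:**
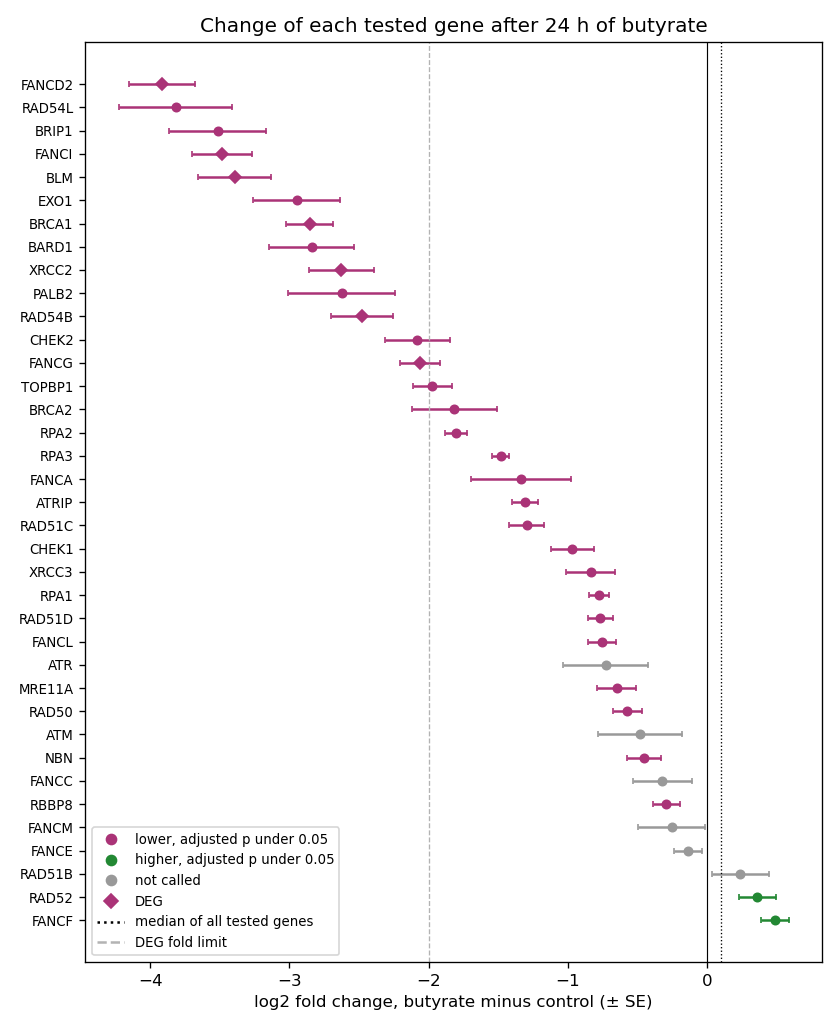
Log2 fold change (butyrate minus control, horizontal axis) with its standard error for the 37 tested genes, ordered from FANCD2 at -3.92 to FANCF at 0.49, with diamonds for DEGs, purple for genes called lower, green for genes called higher and gray for genes not called. The dotted line is the median of all tested genes, 0.10, and 34 of the 37 genes lie below 0.

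RAD51B, RAD51C, RAD51D, XRCC2 and XRCC3, 5 genes whose products form mediator complexes of recombination, ranged from a DEG to no call. XRCC2, on chromosome 4 from 115796820 to 115821949, had an FPKM of 3.72, 4.42 and 4.19 in control and 0.567, 0.785 and 0.432 after butyrate, with a log2 fold change of -2.63 ± 0.23 (SE; limma, Benjamini-Hochberg adjusted p = 2.02e-05). RAD51C, which takes part in the complexes of both XRCC2 and XRCC3, fell from 10.8, 11.8 and 11.6 to 3.97, 4.59 and 5.30, or by 1.30 on the log2 scale (limma, Benjamini-Hochberg adjusted p = 3.55e-05). RAD51D and XRCC3 fell by 0.77 and 0.84 on the log2 scale. XRCC3 overlaps KLC1, a kinesin light chain gene with an FPKM of 88.2 ± 2.90 (SD, n = 3) in control and 90.6 ± 6.83 (SD, n = 3) after butyrate, over 2339 bp, so part of its reads may belong to that gene. RAD51B was not called, with 4.73, 3.65 and 3.19 in control and 3.57, 5.55 and 4.62 after butyrate, and its groups overlapped.

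Among the genes of strand exchange and annealing, both RAD54 translocases fell and RAD52 did not. RAD54L, which promotes strand exchange, lies on chromosome 3 from 100419920 to 100446343 and had an FPKM of 7.77, 6.54 and 7.21 in control and 0.908, 0.180 and 0.384 after butyrate. Butyrate replicate 1 was the highest of the 3 treated cultures, and the log2 fold change of -3.82 ± 0.41 (SE; limma, Benjamini-Hochberg adjusted p = 6.26e-05) was called. RAD54L missed the Bonferroni threshold of a DEG (limma, Bonferroni-adjusted p = 0.164) and passed it without butyrate replicate 1, and its log2 fold change was -2.48 with a pseudocount of 1. RAD54B, its relative on chromosome 14 from 72176845 to 72295323, fell more evenly, from 2.78, 2.39 and 2.66 to 0.438, 0.412 and 0.316, with a log2 fold change of -2.48 ± 0.22 (SE; limma, Benjamini-Hochberg adjusted p = 2.24e-05). FSBP, an entry within the RAD54B locus, had an FPKM of 0.350 ± 0.0748 (SD, n = 3) in control and 0.385 ± 0.0858 (SD, n = 3) after butyrate. The RAD54L entry shares 42 bp with LOC107131248, which had a mean FPKM of 33.4 in control and 27.2 after butyrate.

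RAD52, the single-strand annealing protein on chromosome 5 from 108209673 to 108235511, was the other gene called higher, with less certainty. Its FPKM was 8.83, 9.84 and 11.9 in control and 11.3, 14.4 and 13.5 after butyrate, so that control replicate 3 exceeded butyrate replicate 1. The log2 fold change was 0.36 ± 0.13 (SE; limma, Benjamini-Hochberg adjusted p = 0.0460), and 8 of the 14 alternative fits lost the call, with adjusted p values from 0.0128 to 0.151 over all of them. It fell short without control replicate 1 (adjusted p = 0.147), control replicate 2 (0.110), butyrate replicate 2 (0.151) or butyrate replicate 3 (0.126) in limma. RAD51AP1, a cofactor of strand exchange, was listed at 0 in 5 cultures and at 0.0487 in control replicate 3, and no change can be given for it.

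The 6 genes of end resection were all called lower, beside 25.9% of all tested genes, but by very different amounts. BLM, the helicase that unwinds the resected end, lies on chromosome 21 from 22264375 to 22357483 and had an FPKM of 2.57, 3.03 and 3.05 in control and 0.139, 0.161 and 0.263 after butyrate. EXO1, the nuclease of long-range resection on chromosome 16 from 35742435 to 35790836, had 1.31, 1.36 and 1.48 against 0.0434, 0.121 and 0.123. In both genes the groups were far apart, and the log2 fold changes were -3.39 ± 0.26 and -2.95 ± 0.31 (SE; limma, Benjamini-Hochberg adjusted p = 8.87e-06 and 6.21e-05). The butyrate values imply only 4.57, 6.2 and 10.9 fragments for BLM and 2.65, 8.51 and 8.18 for EXO1. Over the alternative fits the log2 fold change ranged from -3.91 to -1.71 for BLM and from -3.83 to -1.12 for EXO1.

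The genes that sense the break and begin resection changed far less. MRE11A, RAD50 and NBN, which form the MRN complex, fell by 0.65, 0.57 and 0.45 on the log2 scale (limma, Benjamini-Hochberg adjusted p = 0.00361, 0.00143 and 0.0106). The FPKM of MRE11A was 5.66, 6.24 and 5.86 in control and 4.12, 3.98 and 3.19 after butyrate. That of RAD50 was 13.2, 13.3 and 14.3 against 8.35, 10.3 and 8.75, and that of NBN 13.8, 14.7 and 11.9 against 8.53, 10.4 and 10.6. RBBP8, which encodes CtIP, the cofactor that activates MRN, had a small fall, with 17.8, 14.7 and 14.9 against 12.2, 13.2 and 13.1. Its log2 fold change of -0.29 ± 0.10 (SE; limma, Benjamini-Hochberg adjusted p = 0.0290) lost its call in 7 of the 14 alternative fits, over which the adjusted p ranged from 0.0237 to 0.162. Among them were the fits without control replicate 1 (log2 fold change -0.21) and without butyrate replicate 1, 2 or 3 (-0.26, -0.32 and -0.31).

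Replication protein A, the trimer that coats single-stranded DNA in replication as well as in repair, held the most abundant genes of the group. RPA3, the smallest subunit, had an FPKM of 154, 162 and 170 in control and 61.6, 54.5 and 57.8 after butyrate, the highest level of the 39 genes in both groups. RPA1, the large DNA-binding subunit, went from 51.6, 53.5 and 49.5 to 27.8, 31.8 and 30.7, and RPA2, the subunit that checkpoint kinases phosphorylate, from 33.0, 34.4 and 35.1 to 9.11, 9.51 and 10.5. All 3 genes fell, by 1.48, 0.78 and 1.81 on the log2 scale (limma, Benjamini-Hochberg adjusted p = 2.85e-07, 2.02e-05 and 3.96e-07), and no butyrate culture overlapped a control culture.

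Of the 6 checkpoint genes, 4, or 66.7%, were called lower, beside 25.9% of all tested genes. The large kinases ATM and ATR were not called. CHEK2, the kinase that ATM activates, lies on chromosome 17 from 70266804 to 70305258 and had an FPKM of 4.29, 3.57 and 3.13 in control and 1.01, 0.588 and 0.803 after butyrate, with a log2 fold change of -2.08 ± 0.24 (SE; limma, Benjamini-Hochberg adjusted p = 8.76e-05). TOPBP1, which activates ATR, fell evenly from 8.26, 7.95 and 6.60 to 1.83, 1.93 and 1.80, or by 1.97 on the log2 scale (limma, Benjamini-Hochberg adjusted p = 5.46e-06), just under the fold limit of a DEG. ATRIP, the partner that brings ATR to coated DNA, went from 18.1, 17.9 and 19.2 to 7.92, 6.77 and 7.44, and CHEK1, the kinase that ATR activates, from 6.67, 5.20 and 5.93 to 3.28, 2.58 and 3.098. Both were called, with falls of 1.31 and 0.97 on the log2 scale (limma, Benjamini-Hochberg adjusted p = 4.85e-06 and 0.000662).

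ATR itself had an FPKM of 1.14, 0.734 and 0.926 in control and 0.505, 0.376 and 0.710 after butyrate. Its groups did not overlap, yet the log2 fold change of -0.73 ± 0.31 (SE; limma, Benjamini-Hochberg adjusted p = 0.0695) was not called, and without butyrate replicate 3 it was called at -0.93. ATM had 1.19, 0.580 and 0.974 against 0.566, 0.588 and 0.653, so that control replicate 2 lay within the butyrate values, and it was not called (limma, Benjamini-Hochberg adjusted p = 0.202).

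**Figure D3:**
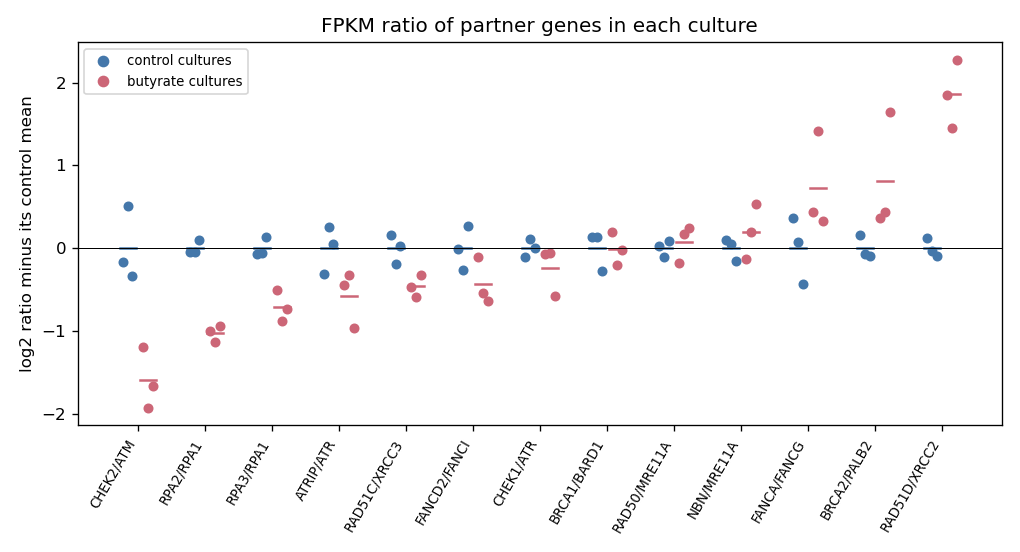
Log2 ratio of the FPKM of 13 pairs of partner genes in each culture, minus the mean of the 3 control cultures of the pair, so that control points scatter around 0 (blue, control; red, butyrate; bars, means of 3). CHEK2/ATM drops by 1.60 and RAD51D/XRCC2 rises by 1.86, while BRCA1/BARD1 stays near 0.

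Because FPKM is scaled by length, the ratio of a pair of partners can be read within each culture, and 13 pairs that share a complex or a signal were compared. The ratios, taken of FPKM + 0.1, did not overlap between groups in 7 pairs and overlapped in 6. Single genes had all butyrate values below all control values in 28.9% of all tested genes, and above them in 36.1%. The share over other pairs of genes was not computed, so the 7 separate pairs cannot be set against it. For each of the 7 the exact permutation test over cultures gave p = 0.1, two-sided, the smallest value that 3 cultures against 3 allow (Benjamini-Hochberg adjusted p = 0.186 over the 13 pairs), so none could pass the threshold. RAD51D to XRCC2, partners in the XRCC2 complex, went from a ratio of 2.86 to 3.33 in control to 8.33 to 14.7 after butyrate. CHEK2 to ATM went the other way, from 3.01 to 5.398 down to 0.999 to 1.66.

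In the trimer of replication protein A both RNA ratios to RPA1 were lower in every butyrate culture. RPA2 to RPA1 lay between 0.640 and 0.710 in control and between 0.302 and 0.345 after butyrate, and RPA3 to RPA1 between 2.99 and 3.44 in control and between 1.71 and 2.22 after butyrate. RPA1 therefore kept more of its RNA than either smaller subunit in all 3 butyrate cultures. RAD51C to XRCC3 and ATRIP to ATR were lower by 0.46 and 0.58 on the log2 scale, and BRCA2 to PALB2 was higher by 0.81. The log2 ratio of BRCA2 to PALB2 was -0.85, -0.78 and 0.43 in the butyrate cultures, against a control mean of -1.21. In butyrate replicate 3 the PALB2 value rests on 4 implied fragments. The ratio of ATRIP to ATR changed sign with quantile normalization, to 0.010.

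BRCA1 to BARD1 was 3.62 to 4.83 in control and 3.79 to 5.01 after butyrate, a difference of -0.01 on the log2 scale. That value depends on the pseudocount, since BARD1 is near 0.1 after butyrate, and it became 0.64 with a pseudocount of 0.01 and 0.055, 0.056 and 0.085 without control replicate 1, control replicate 2 or butyrate replicate 2. RAD50 to MRE11A and NBN to MRE11A overlapped between groups, with differences of 0.08 and 0.20 on the log2 scale (exact permutation test, two-sided, p = 0.6 and 0.4). FANCD2 to FANCI, FANCA to FANCG and CHEK1 to ATR overlapped as well, with differences of -0.43, 0.73 and -0.24.

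In control cultures the levels of the 39 genes ran from 162 ± 8.10 (SD, n = 3) for RPA3 down to BRCA2 at 0.890 ± 0.0638 (SD, n = 3), with FANCB and RAD51AP1 below it. The number of genes with a mean FPKM under 1 went from 5 in control to 18 after butyrate, and the number with at least 10 from 13 to 7. The median of the mean FPKM over the 39 genes was 4.76 in control and 1.85 after butyrate. The size of the fall bore little relation to the control level across the 37 tested genes (Pearson's r = 0.26, Spearman's rho = 0.27), or to the span of the gene (r = -0.14, rho = -0.01). Control values enter both the level and the fold change, and genes are not independent replicates.

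The genes were spread over 23 chromosomes. BRCA1, BRIP1, RAD51C, RAD51D and RPA1 lie on chromosome 19, and their log2 fold changes, -2.85, -3.51, -1.30, -0.77 and -0.78, cover much of the range of the whole group.

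More of the other genes of the pathway were called lower than higher. Of 69 further names of recombination, Fanconi and checkpoint genes, 63 were found and tested. Of these 32 were called lower, 9 higher and 22 were not called, with a median log2 fold change of -0.36. This is 50.8% called lower and 14.3% called higher, beside 25.9% and 32.5% of all tested genes. Downregulated DEGs numbered 5, or 7.94%, beside 1.51% of all tested genes. GEN1, a resolvase of crossed DNA strands, and MND1, a meiotic recombination factor, fell by 3.99 and 3.48 on the log2 scale. The log2 fold change of GEN1 ranged from -5.50 to -1.79 over the alternative fits. EME2, a subunit of a structure-specific nuclease, ZSWIM7, a cofactor of homologous recombination, and BRE, a scaffold of the BRCA1-A complex, were among the genes called higher, with log2 fold changes of 1.27, 1.14 and 0.99.

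Repair by other routes was compared through 3 further lists. The share called lower was 45.5% in end joining, 42.9% in mismatch repair and 45.5% in excision repair, beside 25.9% of all tested genes. The share called higher was 0%, 14.3% and 24.2% in the same order, beside 32.5% of all tested genes. Of 11 end joining genes tested 5 were called lower and 0 higher in limma (0 also at an unadjusted p under 0.05), with POLQ, the polymerase of theta-mediated joining, falling by 2.70, XRCC5, a Ku subunit, by 0.77 and NHEJ1, a ligation factor, by 0.76 on the log2 scale. POLQ had an FPKM of only 0.0213, 0 and 0.00927 after butyrate. Its log2 fold change ranged from -5.10 to -0.68 over the alternative fits. Of 7 mismatch repair genes 3 were called lower and 1 higher, with PMS2 at a log2 fold change of -0.86 and PMS1 at 0.78. Of 33 genes of base and nucleotide excision repair 15 were called lower and 8 higher, with the glycosylases NEIL3 and OGG1 at -3.99 and -2.80 and NEIL1 and NEIL2 at 1.18 and 0.67. The log2 fold change of NEIL3 ranged from -4.96 to -1.82 over the alternative fits. The list medians were -0.26, -0.11 and -0.14, against -1.31 for the recombination and Fanconi genes, and the difference between lists was not tested.

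**Figure D4:**
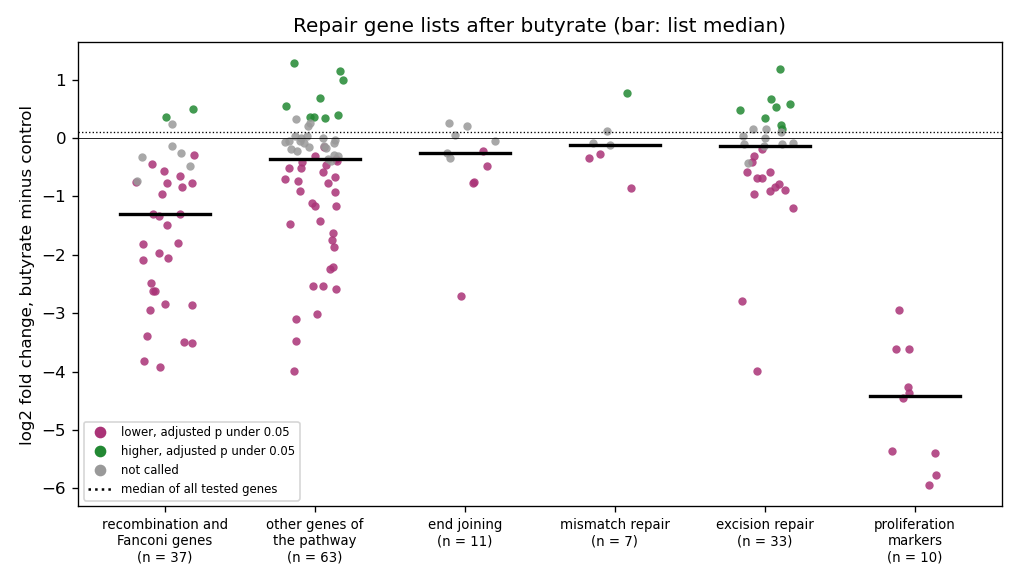
Log2 fold change (butyrate minus control) of each tested gene in 5 repair lists and in the proliferation markers, with black bars at the list medians, purple points for genes called lower, green for higher and gray for not called. The recombination and Fanconi genes have a median of -1.31, the other repair lists lie between -0.36 and -0.11, and the 10 proliferation markers are all called lower with a median of -4.41.

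Markers of dividing cells were lower after butyrate as well. All 10 were downregulated DEGs, beside 1.51% of all tested genes. Their log2 fold changes ran from -5.95 for CCNB2, a mitotic cyclin, to -2.95 for PCNA, the replication clamp. The FPKM of MKI67, a marker of cycling cells, was 3.98 ± 0.244 (SD, n = 3) in control and 0.107 ± 0.0769 (SD, n = 3) after butyrate. The summed FPKM of the 10 markers was between 337 and 354 in control and between 14.8 and 17.9 after butyrate. That of the 39 repair genes was between 476 and 490 in control and between 232 and 241 after butyrate. A large part of this second sum came from the 3 genes of replication protein A, with between 239 and 255 in control and between 95.8 and 99.0 after butyrate. The part of the proliferation markers in the fall of the repair genes was not tested.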

How the data were processed

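RNA of 6 REPC cultures, 3 control and 3 butyrate, was compared. The authors trimmed reads with Trim Galore 0.4.1, removing adapters, bases of quality under 20 and reads shorter than 20 bp, aligned them with STAR and quantified uniquely mapped reads with Cufflinks. The submitters' processing notes name UMD3.1. The deposited values are FPKM per gene and culture with lower and upper confidence bounds. The files hold no counts. The bounds imply fragment numbers, within 0.02 of a whole number for 51.0% to 52.8% of genes under 20 implied fragments, and these served as a guide to precision only.

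Rows were joined by locus and name. The 2 genes for which Cufflinks gave no estimate in some culture were left out. Values were transformed to log2(FPKM + 0.1), and genes averaging under 0.1 FPKM were dropped, which left 15813. These were fitted in limma 3.58.1 (R 4.3.3), with the prior variance following mean expression and p adjusted over all 15813. The fit was tested on simulated data. Ratios of partner genes were compared by an exact permutation test in SciPy 1.17.1. Sequence identifiers were translated to chromosomes through gene names in the study's position tables. A name on several rows was counted at its most abundant row.

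The members, gene lists, pairs and thresholds were chosen with earlier results of these data known. All members are named. Values of every culture are given for the 12 members with the largest change among those called, for members called higher or not called, and for others beside their partners. Of each comparison list, up to 3 called genes with the largest change in each direction are named, and 1 such gene is not reported here. Alternatives were other pseudocounts, filters and scalings, no trend, other thresholds, a replicate block and each culture left out. No promoter or protein sequences were used here, and the motif comparison was not run.

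Same-numbered cultures of the 2 groups had correlations of their deviations across genes of 0.023, -0.0043 and 0.0018, so the replicate numbers do not pair them.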

Additional observations from a re-analysis of the deposited data

How the results depend on the processing

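Of the 31 genes called, 29 kept their call and direction in each of the 14 alternative fits that tested them, and RAD52 and RBBP8 lost theirs in some. Where a log2 fold change beyond 1 was also required, 20 genes were called lower in place of 29. Among the genes not called, 4 gained a call, ATM, ATR, FANCC and FANCM, all with quantile normalization and ATR also without butyrate replicate 3. Rescaling to TPM moved the median of all genes by 0.12 and quantile normalization by -0.13, and the median of the recombination and Fanconi genes minus that of all genes was -1.41 as deposited, -1.41 with TPM, -1.35 with quantile normalization and -0.87 with a pseudocount of 1.

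The number called higher went from 2 to 1 with a pseudocount of 0.01, without a filter, with quantile normalization and without the trend, and to 0 where a log2 fold change beyond 1 was required. With a culture left out it was 1 to 2. Downregulated DEGs went from 7 to 4 with a pseudocount of 1, with TPM and without the trend, to 3 without a filter, to 11 with quantile normalization or a log2 fold change beyond 1, and to 13 with Benjamini-Hochberg adjustment. With a culture left out there were 2 to 4. FANCD2 and BRCA1 remained DEGs in each. The median log2 fold change became -0.80 with a pseudocount of 1, -1.13 at a mean FPKM of at least 1 and -1.19 with TPM. The replicate block lowered DEGs to 2, FANCD2 and BRCA1, and the number called lower from 29 to 28, and not every culture correlated best with its own number.

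The difference in the BRCA1 to BARD1 ratio, -0.01, became 0.64 with a pseudocount of 0.01, 0.18 with quantile normalization, and lay between -0.15 and 0.085 with a culture left out (0.055 and 0.056 without control replicate 1 or 2). With quantile normalization ATRIP to ATR became 0.010 and CHEK1 to ATR 0.20. RAD50 to MRE11A lay between -0.00722 (without butyrate replicate 3) and 0.21 with a culture left out. Apart from the fewer genes or cultures that some alternatives test, the cause was not tested. Several butyrate values, those of FANCD2 among them, rest on under 20 implied fragments, which limits their precision.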
